A study of Rattus norvegicus with 10 samples.

Results

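The genes described here are 7 subunits of the GABA-A receptor that were listed by name, the alpha subunits Gabra2, Gabra3, Gabra4 and Gabra5, the beta subunits Gabrb1 and Gabrb2, and the delta subunit Gabrd, out of 25399 genes in the single-nucleus matrices. They were followed in the ipsilateral dentate gyrus of male Sprague Dawley rats 3 weeks after a lateral fluid percussion injury (LFPI), in which a fluid pulse strikes the intact dura through a craniectomy. Bulk RNA-seq compared 3 rats with traumatic brain injury (TBI) with 3 sham rats, which had the surgery without the pulse. Single-nucleus RNA-seq (snRNA-seq) had 2 TBI rats, 1 sham rat and 1 naive rat without surgery, the last 2 of which together form the control group, so that sham surgery and its absence share that group. The snRNA-seq level of a gene is given in CPM, the unique molecular identifiers (UMIs) of that gene per 1000000 UMIs summed over all nuclei of a class in a rat, and values for the rats always follow the order sham, naive, TBI 1 and TBI 2.

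GABA-A receptors are pentameric chloride channels that open when GABA binds between an alpha and a beta subunit. The partner subunits set where a receptor sits and how it responds. Receptors with the delta subunit, which in dentate granule cells pairs mostly with alpha 4, lie outside synapses and carry tonic inhibition, while alpha 2 and alpha 3 are found at synapses that carry phasic inhibition, and alpha 5 is known from extrasynaptic receptors of hippocampal pyramidal cells. The dentate gyrus uses this inhibition to limit the excitatory drive that enters the hippocampus, and tonic currents in its granule cells have long been studied after injury and in epilepsy.

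After filtering, 55124 of 55863 nuclei were kept, with 16931, 11285, 12508 and 14400 nuclei per rat at median depths of 1897, 2652, 2280 and 1647 UMIs. Granule nuclei, which carried Prox1, the transcription factor that marks dentate granule cells, at 307, 392, 372 and 416 CPM, made up 29414 of them. Other excitatory nuclei, with Fermt1 at 141, 218, 174 and 111 CPM and Neurod6 at 69.9, 115, 73.3 and 139 CPM, numbered 3243, whereas granule nuclei had Neurod6 between 0.755 and 7.35 CPM. Interneuron nuclei, with the GABA synthesis gene Gad1 at 489, 570, 443 and 634 CPM, numbered 3682. The 14533 glial nuclei held 5063 astrocyte, 3236 oligodendrocyte, 3089 oligodendrocyte precursor and 3145 microglia nuclei, and 3678 nuclei stayed unnamed. All 4 libraries shared 1 batch label, each pair of libraries shared between 45 and 60 cell barcodes, and 1.63% to 27.4% of stored matrix entries were written as 0, most in TBI 2. These classes are clusters named from marker genes, and no GABA-A subunit gene was used to form them. Differences between classes are therefore described with their spread over the 4 rats and without a test.

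Prox1 was also present in nuclei outside the granule class, and its level there is given as a measure of granule cell RNA. As a percentage of the granule level in the same rat it lay between 3.06% and 22.9% in other excitatory nuclei, between 25.2% and 35.5% in interneuron nuclei, between 42.3% and 67.9% in astrocyte nuclei and between 64.3% and 80.5% in oligodendrocyte nuclei. Prox1 is itself known from some interneurons and from the oligodendrocyte lineage. The whole list of 13 granule markers gave a like picture, with summed levels of 2737, 2426, 2365 and 2982 CPM in granule nuclei, 2215, 1980, 2027 and 2012 CPM in microglia nuclei and 1317, 1106, 1578 and 1635 CPM in astrocyte nuclei. Levels of the subunits in glial nuclei therefore stand beside a large amount of granule cell RNA, and its part in them was not tested. An alternative left out the glial clusters with the most Prox1, which cannot measure that part because Prox1 chose them.

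**Figure D1:**
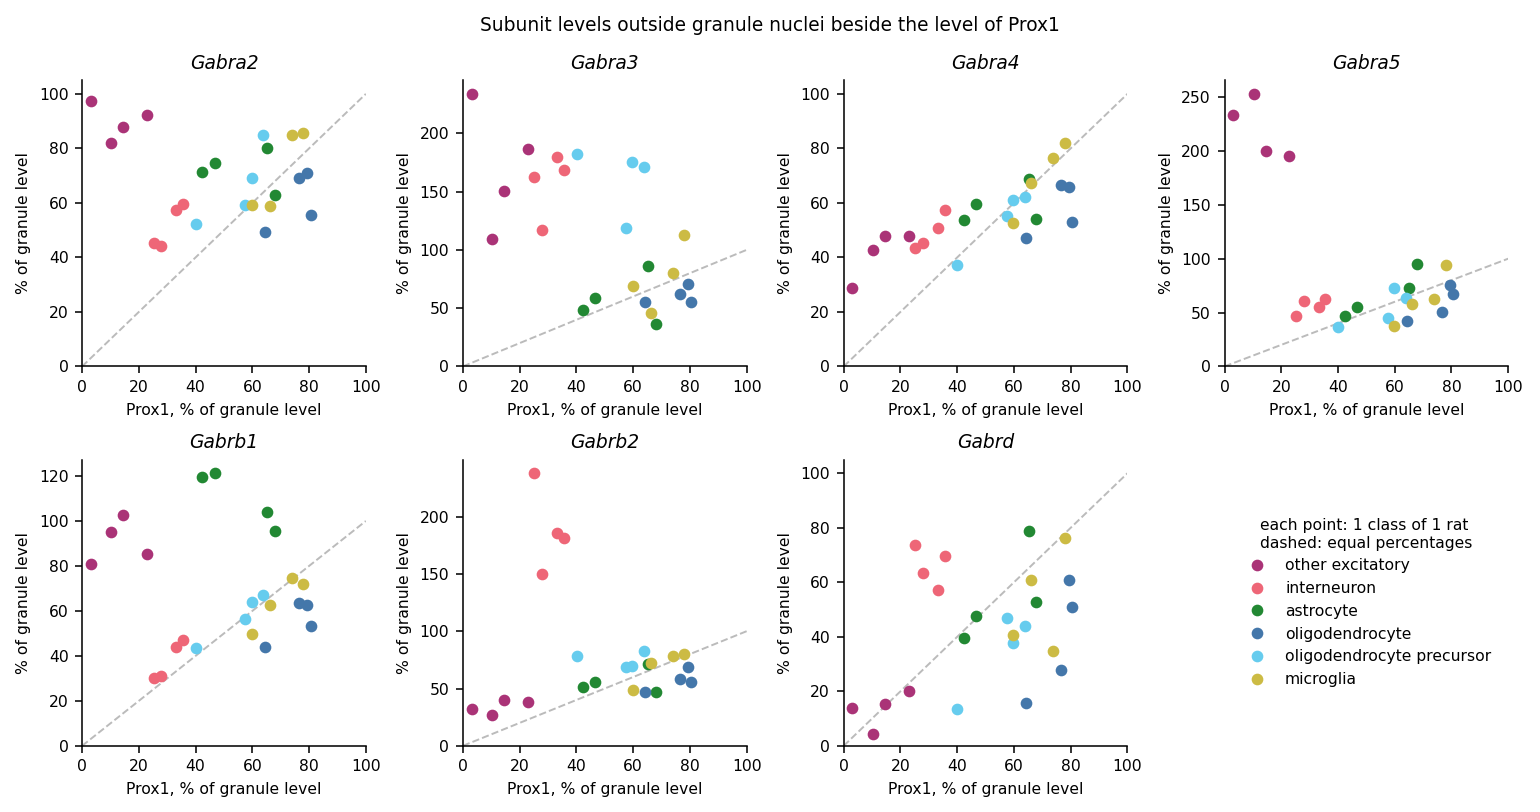
Level of each of the 7 subunit genes outside the granule class (vertical axis, percent of the granule level of the same rat) against that of Prox1 (horizontal axis, same unit), with 1 point for each class of each rat and a dashed line of equal percentages. Prox1 is at most 22.9% in other excitatory nuclei and reaches 80.5% in oligodendrocyte nuclei. Interneuron Gabrb2, other excitatory Gabra5 and astrocyte Gabrb1 lie above the dashed line in every rat, as do other pairs, among them other excitatory Gabra2 and precursor Gabra3.

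Among the alpha subunits, Gabra2, a synaptic subunit of forebrain principal cells, was highest in excitatory neurons. Granule nuclei had 642, 617, 535 and 645 CPM and other excitatory nuclei 563, 602, 494 and 530 CPM, so the ranges of these classes overlapped. Both lay above every value of astrocyte nuclei, the next class in order, at 438 ± 30.8 CPM (SD, n = 4 rats). Microglia, oligodendrocyte precursor, oligodendrocyte and interneuron nuclei followed with means of 437, 401, 372 and 312 CPM, each overlapping its neighbour, and microglia nuclei, at up to 545 CPM in 1 rat, also overlapped with the excitatory classes. The 61.1% to 74.8% of granule nuclei with a Gabra2 UMI came from unequal depths, and after thinning each nucleus to 500 UMIs the mean share was 25.5%.

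Gabra4, the usual partner of delta in granule cells, was the member with the clearest granule pattern among the alpha genes. Its level in granule nuclei was 502, 446, 440 and 517 CPM, and every rat lay above the highest value of any other class. Microglia nuclei were next at 332 ± 66.8 CPM (SD, n = 4 rats) and overlapped with astrocyte, oligodendrocyte, oligodendrocyte precursor and interneuron nuclei at means of 280, 277, 258 and 234 CPM. Other excitatory nuclei were lowest, with 240, 128, 211 and 222 CPM, and overlapped with interneuron nuclei.

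Gabra5 showed the opposite order among the excitatory neurons. Other excitatory nuclei had 193, 167, 148 and 199 CPM and granule nuclei 96.6, 71.7, 75.6 and 78.6 CPM, with no overlap. All remaining classes had means between 44.9 and 54.1 CPM and overlapped with one another. The other excitatory class consisted of a cluster with Rspo2 and Neurod6 among its top genes and a cluster with Fermt1 and Adamts2 among them. Gabra5 was 255, 269, 218 and 243 CPM in the former and 61.3, 70.2, 60.0 and 71.6 CPM in the latter. The high level of the class was thus held by the first of these clusters. Within the granule class, 1 cluster had 152, 97.1, 112 and 122 CPM against 46.5 to 91.6 CPM in the other 3, and an unnamed cluster led by genes of immature granule cells had 158, 246, 205 and 241 CPM.

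Gabra3, a synaptic subunit known from monoaminergic nuclei and parts of the cortex, was spread over unlike classes. Other excitatory nuclei had 58.3, 96.5, 64.4 and 51.8 CPM, oligodendrocyte precursor nuclei 67.7, 75.1, 58.9 and 56.3 CPM and interneuron nuclei 69.7, 67.1, 58.2 and 55.3 CPM, and these classes overlapped. Granule nuclei lay below all of them with 38.7, 41.3, 34.5 and 47.2 CPM. Gabra3 and Gabra5 split the other excitatory class in opposite ways. Gabra3 was 130, 154, 103 and 118 CPM in the Fermt1 and Adamts2 cluster and 24.7, 36.7, 33.4 and 28.9 CPM in the Rspo2 cluster. They also split the granule class in opposite ways, because the granule cluster with the most Gabra5 had 15.7, 11.04, 14.9 and 16.4 CPM of Gabra3 and another had 67.3, 82.1, 51.6 and 86.4 CPM. Among the glia, Gabra3 was the 1 member whose precursor level lay above the granule level of the same rat in every rat, and once the mixed clusters described next were left out it was 171%, 208%, 194% and 128% of that level, beside Prox1 at 23.6% to 51.8%.

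**Figure D2:**
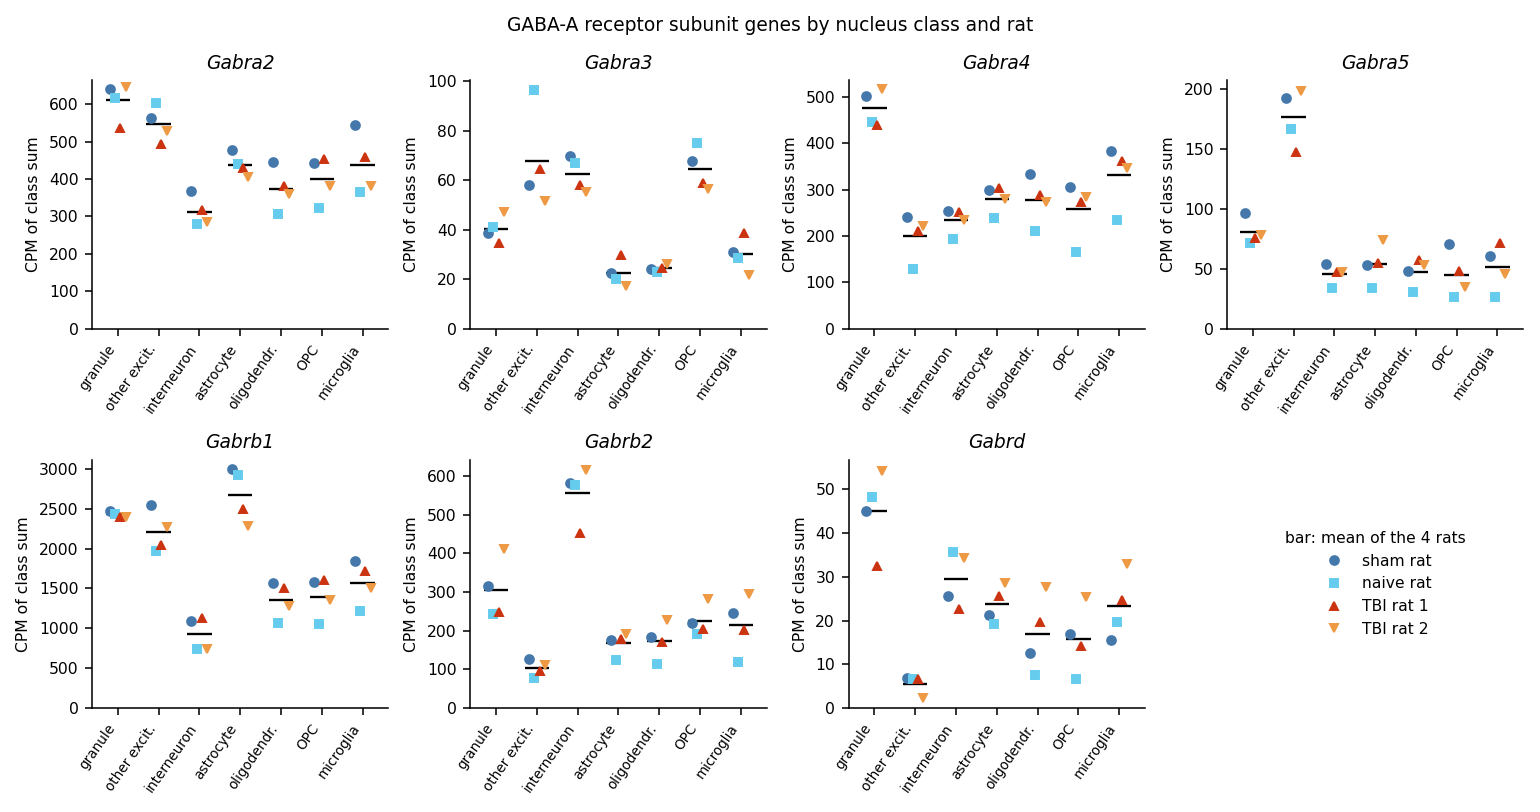
CPM of the 7 subunit genes in 7 classes of nuclei, on linear axes from 0, with 1 point for each of the 4 rats and a bar at their mean. Gabra4 is highest in granule nuclei, Gabra5 in other excitatory nuclei and Gabrb2 in interneuron nuclei in every rat, and Gabrd has its lowest mean, 5.61 CPM, in other excitatory nuclei.

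Of the beta subunits, which every receptor of the common kinds needs to form its GABA sites, Gabrb1 was high in astrocyte, granule and other excitatory nuclei. Astrocyte nuclei had 3002, 2921, 2499 and 2282 CPM, granule nuclei 2476, 2439, 2399.99 and 2393 CPM and other excitatory nuclei 2540.2, 1969.6, 2049 and 2273 CPM, with overlapping ranges. A gap followed, and interneuron nuclei were lowest with 1090, 741, 1133 and 745 CPM. The astrocyte level exceeded the granule level in the sham, naive and TBI 1 rats while Prox1 in astrocyte nuclei was at most 67.9% of its granule level. Oligodendrocyte and microglia nuclei held less Gabrb1 when 3 glial clusters of 1956 nuclei in all were left out. These mixed clusters were chosen because Prox1 reached at least 75% of the granule level in them. A fall of a gene high in granule nuclei was therefore built into this step. None of the mixed clusters was an astrocyte cluster, so the step does not compare astrocyte nuclei with other glia. Without the mixed clusters, Gabrb1 was 42.9%, 11.6%, 51.7% and 30.4% of the granule level in oligodendrocyte nuclei, beside Prox1 at 70.3%, 42.5%, 63.5% and 70.1%. In microglia nuclei it was 62.7%, 11.7%, 60.8% and 36.5%, beside Prox1 at 56.5%, 19.5%, 62.2% and 53.5%. The naive rat was lowest in both classes and TBI 2 next, and these were also the rats in which most Gabrb1 entries of these nuclei were stored as 0, with 13.2%, 47.4%, 2.31% and 38.2% in oligodendrocyte nuclei. Gabrd had 0 UMIs in the naive rat in both classes, a count that allows at most 3 UMIs, and 4 to 14 UMIs in the other rats. The part of the stored zeros in these levels was not tested.

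Gabrb2 was highest where Gabrb1 was lowest. Interneuron nuclei had 583, 577, 452 and 615 CPM, above every value of any other class, granule nuclei 314, 243, 249 and 410 CPM, and other excitatory nuclei were lowest with 127, 77.8, 95.8 and 111 CPM. Over the 32 sums of 8 classes (the 7 above and endothelial nuclei) in 4 rats, the Pearson correlation of log2(CPM + 1) between Gabrb1 and Gabrb2 was −0.24, the lowest of the pairs of members, and that between Gabra2 and Gabrb1 was 0.80, the highest. These sums share libraries and depth, and the coefficients only describe them. Inside the interneuron class, the cluster led by Lamp5, Lhx6, Nxph1 and Reln had 1063, 1104, 760.2 and 1065 CPM of Gabrb2. The cluster led by Sst, Pvalb and Lhx6 had 445, 454, 388 and 446 CPM, and the cluster led by Vip, Adarb2 and Htr3a 342, 334, 283 and 341 CPM. All 4 rats gave the same order of the 3 clusters. Their markers were partly shared, since Reln and Npas1 led in all 3 and Adarb2 in both the Lamp5 and the Vip cluster. Of these 3 clusters Lamp5 and Vip each led in only 1, and neither was among its top genes, so they serve as labels only.

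Although Gabrb1 and Gabrb2 were high in different classes, their promoters shared a sequence, which is the reason for showing them. RefSeq promoters of the rat assembly GRCr8, reaching from 250 bases before to 50 bases after the start of a gene, were found for 6 of the 7 members, all but Gabra2. Compared for sequences of at least 10 bases that equal their own reverse complement, these promoters shared 1 such palindrome, GCGCATGCGC, which was found in Gabrb1 and Gabrb2 and in no other of the 6, while 285 of 33469 promoters (0.852%) held it. It matches the known binding motif of NRF1, a regulator of genes for respiration. Each window is printed 5′ to 3′ on the strand of its gene, with the palindrome in capitals. The Gabrb1 window lies at chr14:36902903-36902932 on the minus strand, and its palindrome begins 29 bases before the start of the gene. The Gabrb2 window lies at chr10:27439688-27439717 on the plus strand, and its palindrome begins 95 bases before the start.
Gabrb1: agtacactctGCGCATGCGCaggtccattc
Gabrb2: ggtacgccgtGCGCATGCGCtccacattag
A match describes the letters only, and binding was not measured. The promoters otherwise fell into unlike groups by base composition. Those of Gabra4, Gabra5 and Gabrd were 70.7%, 76.3% and 73.7% G and C with 35, 42 and 40 CpG pairs, whereas those of Gabra3, Gabrb1 and Gabrb2 were 39.3%, 49.3% and 44.0% with 0, 11 and 9, against medians of 51.7% and 7 over all promoters. The GC box GGGCGG, searched on both strands, was found 4 times in Gabrd and once each in Gabra4 and Gabra5 (33.1% of all promoters hold it), the TATA box TATAAA in Gabra3 alone (14.2%), and the cyclic AMP response element TGACGTCA in no member (1.83%). Gabra2, Gabra4 and Gabrb1 are close neighbours on chromosome 14, where Gabrb1 and Gabra4 are adjacent protein-coding genes and Cox7b2 separates Gabra4 from Gabra2.

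Gabrd, the subunit of extrasynaptic receptors, was found at 44.97, 48.3, 32.5 and 54.2 CPM in granule nuclei. Interneuron nuclei had 25.7, 35.6, 22.6 and 34.4 CPM, astrocyte nuclei 21.4, 19.2, 25.7 and 28.6 CPM, and the neighbouring classes overlapped all the way down to other excitatory nuclei. There, 24, 18, 22 and 7 UMIs gave 6.82, 6.73, 6.58 and 2.31 CPM. In the sham, TBI 1 and TBI 2 rats this was the lowest level of Gabrd among the 7 classes. In the naive rat oligodendrocyte precursor nuclei were as low, with 6 UMIs and 6.53 CPM, and oligodendrocyte nuclei had 5 UMIs and 7.63 CPM. Among the interneuron clusters, the one led by Lamp5 and Lhx6, which was highest for Gabrb2, also had the most Gabrd, with 56.0, 76.8, 37.9 and 73.2 CPM. The Sst and Pvalb cluster had 21.6, 24.8, 23.5 and 16.2 CPM and the Vip cluster 4.58, 18.4, 9.17 and 14.4 CPM. The Lamp5 cluster thus lay above the other interneuron clusters, and also above the granule nuclei of the same rat, in all 4 rats. Between 7.91% and 12.6% of granule nuclei had a Gabrd UMI, and 2.26% on average after thinning.

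The makeup of each subunit family was then compared across classes. Because UMIs of different genes depend on gene length and priming, the shares serve only to compare 1 gene between classes. Of the UMIs of the 4 alpha members, Gabra5 held 17.8% in other excitatory nuclei (16.1% to 19.8% over rats) and at most 9.59% in any rat in the other 6 classes shown. Gabra4 held 12.9% to 23.0% there, against at least 28.2% in those 6 classes and a mean of 39.5% in granule nuclei. Other excitatory nuclei were therefore set apart from granule nuclei by a larger alpha 5 share and a smaller alpha 4 share in every rat. Oligodendrocyte nuclei had shares of 51.7%, 3.45%, 38.3% and 6.53% for Gabra2, Gabra3, Gabra4 and Gabra5, close to the 50.5%, 3.34%, 39.5% and 6.68% of granule nuclei. Microglia nuclei had 51.6%, 3.58%, 39.0% and 5.87%. Of the UMIs of the 2 beta members, Gabrb2 held 38.1% in interneuron nuclei (28.5% to 45.2%), 11.1% in granule nuclei (9.05% to 14.6%), 4.42% in other excitatory nuclei (3.80% to 4.76%) and 6.01% in astrocyte nuclei.

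**Figure D3:**
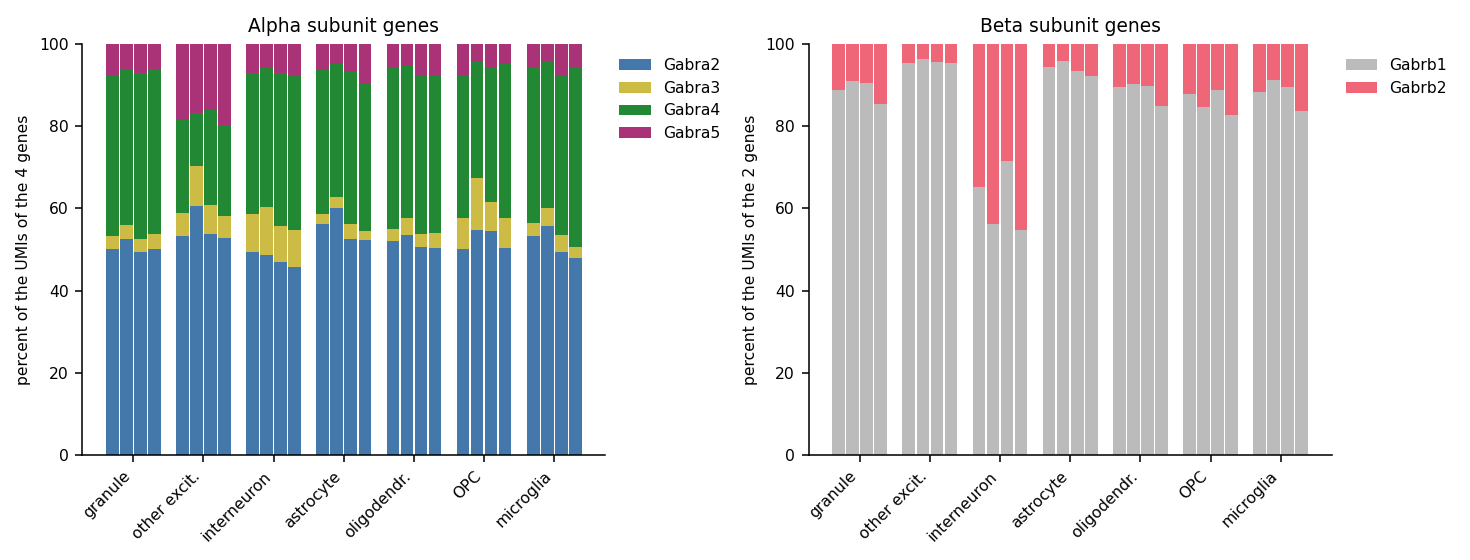
Share of each alpha member among the UMIs of the 4 alpha members, and of each beta member among those of the 2 beta members, in percent by class of nuclei, with 1 stacked bar for each of the 4 rats. Other excitatory nuclei show the widest Gabra5 part, 17.8% on average, and interneuron nuclei the widest Gabrb2 part, 38.1% on average.

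Genes with the most similar pattern were sought by Pearson correlation of log2(CPM + 1) over the same 32 sums. Gabra5 was most like Nptxr (0.96) and Dkk3 (0.95), Gabra2 like Celf2 (0.94) and Zfpm2 (0.94), and Gabra4 like Dgki (0.93). Gabra3 was most like Amph (0.92), Gabrb2 like Lrrtm4 (0.93) and Gabrd like Unc13c (0.85). The coefficients are descriptions of sums that share libraries.

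The effect of injury was first examined in nuclei, by summing the UMIs of each class in each rat and comparing 2 TBI with 2 control rats with the edgeR quasi-likelihood test. No member rose or fell in any class at a false discovery rate (FDR) under 0.05. In granule nuclei, where 0 of 14071 genes (0.0%) passed, 163 genes (1.16%) had an unadjusted p under 0.05 and DESeq2 called 0, the 7 members had log2 fold changes between −0.18 for Gabra5 and 0.21 for Gabrb2, all at an adjusted p of 0.9999. Gabrb2 there had its highest value, 410 CPM, in TBI 2 and 249 CPM in TBI 1, against 314 and 243 CPM in the controls, so its groups overlapped (SE 0.31, 95% interval −0.57 to 0.99). The delta and alpha 4 subunits of tonic inhibition gave log2 fold changes of −0.15 (SE 0.31, interval −0.95 to 0.65) for Gabrd and −0.04 (SE 0.18, interval −0.48 to 0.41) for Gabra4. Their TBI rats lay on either side of the control rats, TBI 1 below and TBI 2 above both. For Gabrb1 the interval was narrowest, −0.49 to 0.30 around −0.09. Changes in granule nuclei beyond these intervals were thus not seen, while changes within them could not be resolved with 4 rats.

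Other excitatory nuclei gave 0 calls among 11242 genes (0.0%), with 123 (1.09%) at an unadjusted p under 0.05 and 0 by DESeq2. The largest log2 fold changes of members were −0.47 for Gabra3 (SE 0.29, adjusted p = 0.9993 by edgeR) and −0.68 for Gabrd (SE 0.67, interval −2.33 to 0.96), the latter resting on 7 to 24 UMIs per rat. Without the naive rat the value for Gabra3 was −0.054 and without the sham rat −0.79, and for Gabrd it was −0.19 without TBI 2 and −1.49 without TBI 1. In interneuron nuclei, where 0 of 11226 genes (0.0%) passed, 154 (1.37%) had an unadjusted p under 0.05 and DESeq2 called 0, Gabra3 had 58.2 and 55.3 CPM in TBI against 69.7 and 67.1 CPM in control rats. The groups did not overlap, as in 28.8% of all genes tested in this class, and the log2 fold change of −0.34 (SE 0.18) had an adjusted p of 0.9997 by edgeR. Gabrb2 there was −0.19 (SE 0.20) and Gabrd −0.18 (SE 0.34).

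In glial nuclei as a whole, edgeR called 0 of 13583 genes (0.0%), with 1305 (9.61%) at an unadjusted p under 0.05, and DESeq2 called 155 (1.14%), none of them a member. In astrocyte nuclei, edgeR called 0 of 12538 genes (0.0%) and 1592 (12.7%) had an unadjusted p under 0.05, while DESeq2 called 269 (2.15%), again without a member. In these nuclei 44.3% of all genes had groups that did not overlap, as had 5 of the 7 members. Astrocyte Gabrb1 was lower in both TBI rats, with 2499 and 2282 CPM, than in both control rats, with 3002 and 2921 CPM. Its log2 fold change was −0.37 (SE 0.15, interval −0.72 to −0.03) with an adjusted p of 0.352 by edgeR, which missed the threshold, although Gabrb1 was among the 12.7% of genes with an unadjusted p under 0.05. In the same nuclei Prox1 moved the other way, from 144 and 166 CPM in control to 242 and 283 CPM in TBI rats, and the list of 13 granule markers from 1317 and 1106 to 1578 and 1635 CPM. The summed astrocyte markers of the class were also lower in both TBI rats, at 4031 and 5879 CPM, than in both control rats, at 6024 and 7687 CPM. Within each group the order of the rats was the reverse of that for Gabrb1, an order that decides nothing with 2 rats in a group. The part of either in the Gabrb1 value was not tested. Gabra5 in astrocyte nuclei, at 53.5 and 33.6 CPM in control and 54.96 and 74.4 CPM in TBI rats, had a log2 fold change of 0.51 (SE 0.27, adjusted p = 0.498 by edgeR). Its sham and TBI 1 rats were nearly level, and the value was 0.21 without the naive rat, 0.27 without TBI 2 and 0.87 without the sham rat.

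Oligodendrocyte nuclei had the largest log2 fold change of any member, 1.08 for Gabrd (SE 0.50, interval −0.04 to 2.20), which came from 13 and 5 UMIs in control and 21 and 38 in TBI rats. No gene of 9357 (0.0%) passed by edgeR in these nuclei, 196 (2.09%) had an unadjusted p under 0.05, and DESeq2 called 1 (0.0107%), no member. Precursor nuclei (0 of 9849 genes, 0.0%, with 316 or 3.21% at an unadjusted p under 0.05) and microglia nuclei (0 of 9212, 0.0%, with 217 or 2.36%) likewise had no call by edgeR or DESeq2. Their members ranged from −0.35 for Gabra3 to 0.69 for Gabrd in precursor nuclei and from −0.16 for Gabra2 to 0.68 for Gabrd in microglia nuclei.

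Whether injury acted differently on a class than on granule nuclei was tested as an interaction, and no gene passed an FDR of 0.05. For other excitatory nuclei 129 of 13598 genes (0.949%) had an unadjusted p under 0.05, for interneuron nuclei 136 of 13678 (0.994%) and for glial nuclei 468 of 14442 (3.24%). The smallest p among members belonged to the glial contrast, where the effect on Gabra5 exceeded that in granule nuclei by 0.60 on the log2 scale (SE 0.22) and that on Gabrd by 0.74 (SE 0.27), each with an unadjusted p under 0.05 and an adjusted p of 0.960 by edgeR. Both stand beside the higher Prox1 of TBI glia, whose part in them was not tested.

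**Figure D4:**
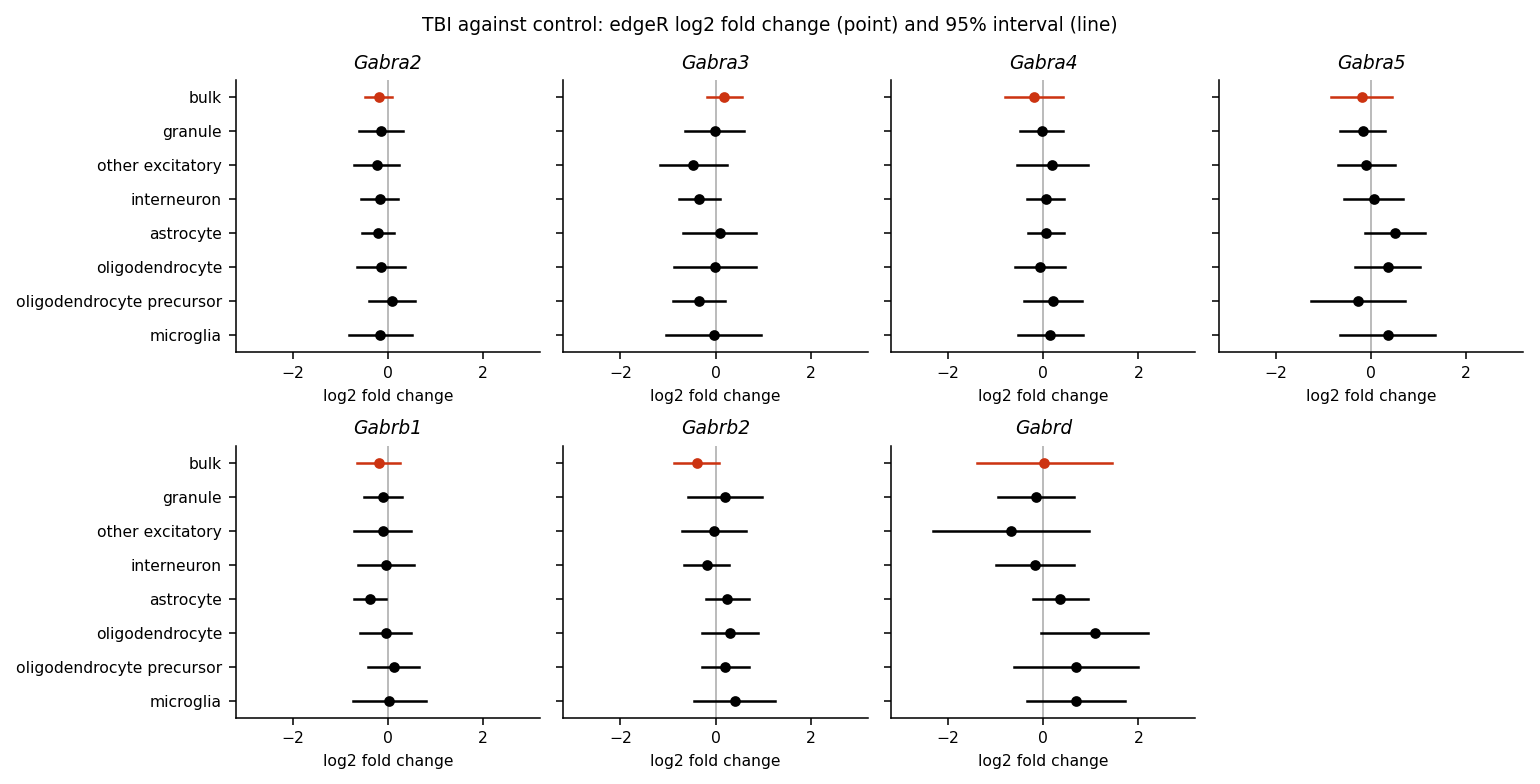
Log2 fold change of each member in TBI against control, with 95% intervals from edgeR, in bulk tissue (red) and in 7 classes of nuclei (black). All intervals cross 0 except that of Gabrb1 in astrocyte nuclei, −0.72 to −0.03, whose adjusted p was 0.352.

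In bulk tissue, whose deposited values are log2 CPM from estimated counts of 25121893 to 44649404 per library, edgeR called 0 of 14077 genes (0.0%), with 1348 (9.58%) at an unadjusted p under 0.05. DESeq2 called 346 (2.46%) and limma 0 of 14166 (0.0%), and no member was among the calls. The 3 sham and 3 TBI libraries overlapped in all 7 members, whereas 14.7% of all genes had groups that did not overlap. In such tissue, fewer cells of a type and less RNA per cell cannot be told apart. Gabrb2 had the smallest p of the members, with 19.8, 21.5 and 19.3 CPM in sham and 19.4, 16.6 and 11.3 CPM in TBI libraries, a log2 fold change of −0.39 (SE 0.20, interval −0.87 to 0.08, adjusted p = 0.627 by edgeR). Its lowest value came from TBI 3, without which the log2 fold change was −0.20, and leaving out each of the other libraries gave values between −0.57 and −0.34. TBI 3 was also lowest for the summed markers of other excitatory nuclei, at 812 CPM against 1191 to 1399 CPM elsewhere, and of interneurons, at 814 CPM against 829 to 1056 CPM. It was highest for endothelial markers, at 465 CPM against 239 to 287 CPM, and for pericyte markers, at 331 CPM against 109.9 to 153 CPM. The part of these markers in the Gabrb2 value was not tested.

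Gabra2 was 113, 109 and 129 CPM in sham and 104, 115 and 96.0 CPM in TBI libraries, a log2 fold change of −0.19 (SE 0.12, interval −0.47 to 0.09). Gabra3 was 14.6, 17.6 and 19.7 CPM in sham and 18.2, 19.1 and 23.5 CPM in TBI libraries and had a log2 fold change of 0.19 (SE 0.16). These synaptic alpha genes varied little between libraries. Gabra4 at −0.19 (SE 0.26), Gabra5 at −0.20 (SE 0.27) and Gabrb1 at −0.19 (SE 0.20) had fold changes smaller than their errors, and of all genes tested 50.6% lay below 0.

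Gabrd varied most. Sham libraries had 39.0, 7.92 and 11.7 CPM and TBI libraries 28.2, 10.6 and 21.9 CPM, so that the highest sham library was 4.93 times the lowest and the highest TBI library 2.66 times the lowest. Its log2 fold change was 0.02 with an interval of −1.39 to 1.43, wide enough to hold a change of either sign, and it was 0.99 without sham 1 and −0.35 without sham 2. By the deposited dates of injury, sham 1, sham 2 and TBI 1 were operated on in spring and sham 3, TBI 2 and TBI 3 in autumn, and within these periods the difference of mean log2 CPM between TBI and sham was 0.68 and 0.38 for Gabrd, −0.09 and −0.49 for Gabrb2, −0.10 and −0.30 for Gabra2, 0.18 and 0.11 for Gabra3, 0.09 and −0.05 for Gabra4, −0.02 and −0.46 for Gabra5 and −0.28 and −0.03 for Gabrb1. With the period as a covariate the log2 fold change of Gabrd was 0.33 (SE 0.60, adjusted p = 0.946 by edgeR) and that of Gabrb2 −0.32 (SE 0.20, adjusted p = 0.811 by edgeR). Each period held 1 library of either the sham or the TBI group, so no test was made within a period. Summed over the 11 measured granule markers, the same libraries had 804, 207 and 212 CPM in sham and 563, 228 and 445 CPM in TBI, and the 3 libraries with the most Gabrd, sham 1, TBI 1 and TBI 3 in that order, were also the 3 with the most granule marker RNA. Gabra4 was 155, 89.4 and 89.4 CPM in sham and 125, 76.0 and 98.0 CPM in TBI libraries and was likewise higher in those 3. Gabra5 went the other way, with 145, 187 and 163 CPM in the 3 libraries rich in granule RNA and 248, 281 and 255 CPM in the other 3. The libraries fall into separate sets by this measure, and no correlation over them is given.

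With the granule marker level added as a covariate, an alternative chosen after seeing the data, the standard error of the injury effect fell to 25.7% of its size for Gabrd, 37.2% for Gabra4 and 45.2% for Gabra5. Only 0.270%, 0.895% and 1.80% of all 14077 genes had a value as low, and the median was 94.8%. For Gabrb1, Gabra2, Gabra3 and Gabrb2 it was 81.2%, 91.8%, 91.9% and 104%. In this fit the spread between libraries of the same group in Gabrd, Gabra4 and Gabra5 went with the granule marker level. That of Gabra2, Gabra3 and Gabrb2 did so little or not at all. Because the covariate was chosen after the pattern was seen in these same libraries, the fit restates that pattern and adds no separate evidence. In that fit the log2 fold change was −0.01 (SE 0.15) for Gabrd, −0.05 (SE 0.12) for Gabra5 and −0.27 (SE 0.096, adjusted p = 0.359 by edgeR) for Gabra4. Other cell type markers moved with injury itself, since the summed astrocyte list was 4904, 5155 and 4291 CPM in sham and 7145, 10200 and 7519 CPM in TBI, and the microglia list 278, 275 and 287 CPM in sham and 480, 876 and 502 CPM in TBI, and their part in the subunit values was not tested. Oligodendrocyte markers in sham 2 reached 17561 CPM against 5211 to 8216 CPM in the other libraries.

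**Figure D5:**
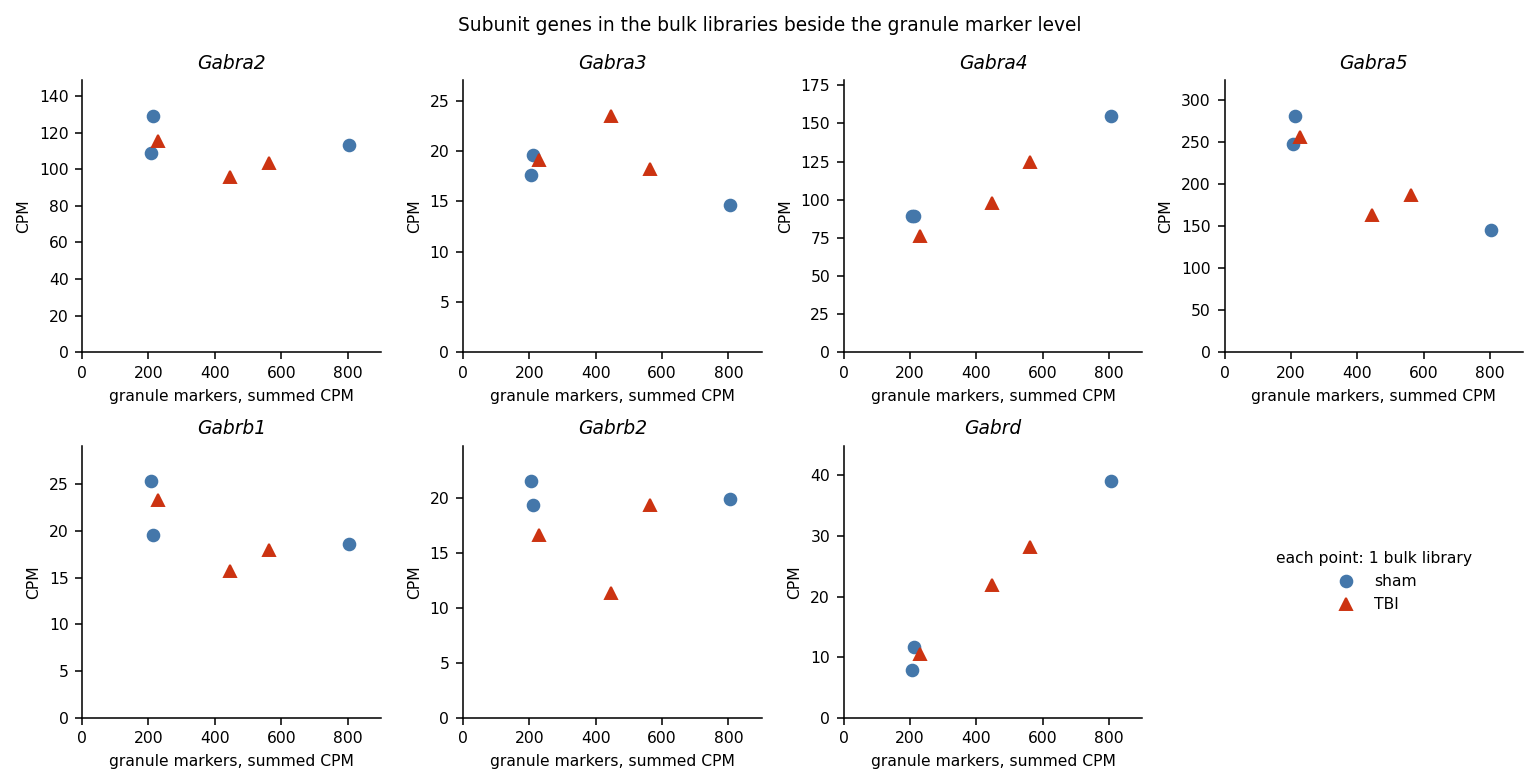
CPM of the 7 members in the 6 bulk libraries (vertical axes, linear from 0) against the summed CPM of granule markers (horizontal axes), with sham libraries as circles and TBI libraries as triangles. Gabrd and Gabra4 are highest in sham 1 and TBI 1, the libraries with the most granule marker RNA, and Gabra5 is lowest in sham 1.

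The wider GABA pathway was followed through a list of 40 genes besides the members, which held the other GABA-A and GABA-B subunits and genes for GABA synthesis, transport, chloride balance, receptor clustering and neurosteroid synthesis. By edgeR none of the list passed an FDR of 0.05 in bulk tissue or in any class. In bulk tissue 5 of 35 tested genes had a log2 fold change above 0 and 30 below, with a median of −0.13 against −0.00 over all genes, and 3 had an unadjusted p under 0.05. One was Slc6a13, a GABA transporter of the meninges, at 3.39, 4.55 and 2.64 CPM in sham and 8.69, 4.38 and 47.1 CPM in TBI libraries, where TBI 3, the library with the most endothelial and pericyte marker RNA, decided the log2 fold change of 2.46 (SE 0.83, adjusted p = 0.366 by edgeR). The part of that RNA in this value was not tested. In granule nuclei 20 of 32 lay above 0 and 12 below, where 51.3% of all genes lay below, with 2 at an unadjusted p under 0.05. These were Gad1, with 54.2 and 54.4 CPM in control and 78.4 and 105 CPM in TBI rats (log2 fold change 0.71, SE 0.23, adjusted p = 0.9999 by edgeR), and Shisa7, which encodes an auxiliary protein of GABA-A receptors, with 147 and 158 CPM in control and 228 and 199 CPM in TBI rats (0.42, SE 0.13). Gad1 was also higher in both TBI rats than in both controls in microglia, astrocyte and oligodendrocyte nuclei. Its groups overlapped in other excitatory, interneuron and precursor nuclei, and it passed an FDR of 0.05 in none of these classes. Microglia nuclei had 43.6 and 35.8 CPM in control and 77.6 and 84.5 CPM in TBI rats (0.98, SE 0.29). Astrocyte nuclei had 45.6 and 50.1 CPM in control and 69.5 and 64.9 CPM in TBI rats, and 44.3% of all genes there had groups that did not overlap. This share was not counted in granule, microglia or oligodendrocyte nuclei, so the separate Gad1 groups there only describe these rats. Interneuron nuclei had 489 and 570 CPM in control and 443 and 634 CPM in TBI rats. In other excitatory nuclei 20 of 30 lay above 0, where 52.4% of all genes lay below, and 1 had an unadjusted p under 0.05, again Shisa7, with 108 and 119 CPM in control and 170 and 155 CPM in TBI rats. In interneuron nuclei 16 of 30 lay above 0, where again 52.4% of all genes lay below, and none had a p under 0.05.

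Astrocyte nuclei had 16 of 32 pathway genes above and 16 below 0, where 52.0% of all genes lay below, and 10 had an unadjusted p under 0.05, beside the 12.7% of all genes. Slc6a11, the GABA transporter GAT-3 of astrocytes, was 144 and 115 CPM in control and 79.4 and 83.9 CPM in TBI rats, a log2 fold change of −0.73 (SE 0.17, adjusted p = 0.194 by edgeR and 0.0536 by DESeq2). In all glial nuclei it was 97.1 and 87.0 CPM against 56.1 and 45.2 CPM, a log2 fold change of −0.92 (SE 0.18, adjusted p = 0.269 by edgeR and 0.0217 by DESeq2). Astrocyte nuclei were 2066 of 4321 and 967 of 2309 glial nuclei in control and 1029 of 3291 and 1001 of 4612 in TBI rats, and the part of this makeup in the pooled glial value was not tested. Shisa7, at 65.6 and 54.3 CPM in control and 151 and 125 CPM in TBI astrocyte nuclei, had a log2 fold change of 1.14 (adjusted p = 0.178 by edgeR and 0.00121 by DESeq2). Its control rats also lay below its TBI rats in interneuron nuclei, at 93.3 and 114 against 165 and 122 CPM. Oligodendrocyte nuclei had 60.0 and 56.5 against 116 and 82.9 CPM, and microglia nuclei 88.7 and 62.6 against 149 and 109 CPM. Groups did not overlap in 28.8% of all genes in interneuron and 44.3% in astrocyte nuclei, a share not counted in the other classes. Slc12a5, the neuronal chloride exporter KCC2, was 69.5 and 64.7 CPM in control and 131 and 129 CPM in TBI rats (0.89, adjusted p = 0.178 by edgeR and 0.00752 by DESeq2). Iqsec3, a neuronal protein of inhibitory synapses, was 61.0 and 54.5 CPM in control and 102 and 124 CPM in TBI rats (0.90, adjusted p = 0.181 by edgeR and 0.0133 by DESeq2). Slc12a5 and Iqsec3 are genes of neurons. In astrocyte nuclei they and Shisa7 moved together with Prox1, whose part in their values was not tested. The markers of astrocytes moved the opposite way in these nuclei, as did Slc6a11 and Gabrb1, with the summed list of 11 astrocyte markers at 6024 and 7687 CPM in control and 4031 and 5879 CPM in TBI rats, and Slc1a3, a glutamate transporter of astrocytes, at 1735 and 1780.1 CPM in control and 917 and 1205 CPM in TBI rats. Their part in the Slc6a11 value was not tested.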

How the data were processed

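Dentate gyrus tissue of 6 rats was measured by bulk RNA-seq and of 4 rats by snRNA-seq. The members and gene lists were chosen with earlier results of these data known. For bulk tissue the authors deposited log2 CPM values made from polyA libraries with kallisto, and estimated counts were worked back from them for the count test. The deposited gene table held 97.8% to 98.5% of each library, and 10096 of its 14166 genes (71.3%) equalled a single listed transcript within 0.001, which limits it where a gene has several transcripts. For nuclei the authors deposited UMI counts from Cell Ranger with exons and introns on Rnor_6.0. No source used here says why some entries were stored as 0, and they were read as 0. Nuclei were kept with at least 500 UMIs, at least 300 genes, at most 5% mitochondrial and 2% ribosomal UMIs and a log10 ratio of genes to UMIs of at least 0.8. They were integrated and clustered with Seurat 5.3.0 without the GABA-A genes. A cluster was named where at least 3 fixed markers led and its marker list led the next by at least 0.5 on the log2 scale. For this margin the granule and immature granule lists were not set against each other. Clusters whose top genes were largely mitochondrial also stayed unnamed. Every unnamed cluster had enough leading markers but missed the margin, which was 0.48 for the unnamed excitatory cluster. Scrublet at its own threshold marked 387 nuclei in the sham library and 0 in the others, so doublets were kept, and leaving out the highest scores was an alternative. The edgeR 4.0.16 quasi-likelihood test on TMM-scaled counts was run on all genes past filterByExpr (R 4.3.3), with Benjamini-Hochberg adjustment and all p-values two-sided. DESeq2 1.42.0 and limma 3.58.1 were alternatives. The scripts were tested on simulated data. Nothing says whether library numbers stand for more than separate rats, and p-values measure the spread between these rats. Named genes were the 7 members, pathway genes past an FDR of 0.05 or among the 3 smallest p per comparison, and the 3 genes most like a member among those with a mean of at least 20 CPM, of which a few are not reported here. Intervals are at 95%.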

Additional observations from a re-analysis of the deposited data

How the results depend on the processing

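No member passed an FDR of 0.05 in any of the 549 fits of a member under an alternative, of which 473 kept its direction and 76 changed its sign. The count of genes past an FDR of 0.05 is 0 in every class and in bulk tissue by edgeR, and it changed as follows. In bulk tissue DESeq2 gave 346, the replicate block 79, the granule marker covariate 2, and leaving out 1 library 0 to 1, the 1 without TBI 3. No source used here says that the bulk replicate numbers pair the libraries. Same-numbered sham and TBI libraries deviated from their group means with correlations of 0.40, 0.24 and −0.04, and unlike-numbered ones with correlations between −0.36 and 0.15. With so few libraries these values cannot decide whether the numbers pair them, so this block is only a change of setting. No source used here pairs the 2 control nuclei libraries, 1 sham and 1 naive rat, with the TBI rats, so no paired analysis was made. Some values were alike in sham and TBI 1 and in naive and TBI 2. In granule nuclei Slc1a3 was 77.8, 16.8, 81.3 and 18.2 CPM in the sham, naive, TBI 1 and TBI 2 rats. Fermt1 there was 3.88, 0.283, 2.64 and 0.0821 CPM. The part of this likeness in the spread between rats was not tested. Without a filter on low counts, other excitatory nuclei gave 44 and interneuron nuclei 24. DESeq2 gave 155 in glial, 269 in astrocyte and 1 in oligodendrocyte nuclei. Leaving out 1 rat gave 0 to 23 in granule (23 without TBI 2), 0 to 168 in other excitatory (168 without TBI 1, 53 without TBI 2), 0 to 19 in interneuron, 0 to 13 in glial, 0 to 14 in astrocyte, 0 to 27 in oligodendrocyte, 0 to 2 in oligodendrocyte precursor and 0 to 80 in microglia nuclei (80 without the sham rat), where a lone rat is assumed to vary like the others. The cause was not tested.

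The log2 fold changes that turned were these. Bulk Gabrd was −0.0012 by DESeq2 and −0.012 with the granule covariate. Granule Gabra3 was 0.21 in the largest cluster. With classes set by marker gates in place of clusters, other excitatory Gabra5 was 0.16 and Gabrb1 0.031, interneuron Gabrd 0.10 and Gabrb1 0.093, and glial Gabra5 −0.19, Gabrd −0.092 and Gabra4 −0.049. Without the highest doublet scores, other excitatory Gabrb2 was 0.051 and interneuron Gabrb1 0.13. With stored zeros counted, other excitatory Gabrb2 was 0.051 and glial Gabra3 0.15, and glial Gabra3 was 0.0044 by DESeq2, 0.0077 without the filter and 0.037 in nuclei of at least 1000 UMIs. Without the mixed clusters, oligodendrocyte Gabrb1 was 0.46, Gabra2 0.042 and Gabra4 0.18, and microglia Gabra2 0.11.

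Leaving out 1 library at a time also turned some signs. Bulk Gabra4 ran from −0.40 to 0.11 and Gabrd from −0.35 to 0.99. In granule nuclei the ranges were −0.36 to 0.014 for Gabra5, −0.66 to 0.21 for Gabrd, −0.35 to 0.24 for Gabra3, −0.37 to 0.033 for Gabra2, −0.24 to 0.12 for Gabra4 and −0.29 to 0.56 for Gabrb2. In other excitatory nuclei they were −0.43 to 0.20 for Gabra5, −0.28 to 0.087 for Gabrb1, −0.19 to 0.70 for Gabra4 and −0.33 to 0.36 for Gabrb2. In interneuron nuclei they were −0.21 to 0.41 for Gabra5, −0.55 to 0.12 for Gabrd, −0.33 to 0.25 for Gabrb1, −0.32 to 0.023 for Gabra2, −0.099 to 0.24 for Gabra4 and −0.47 to 0.045 for Gabrb2. Glial Gabra5 ran from −0.038 to 0.79, Gabra3 from −0.22 to 0.20 and Gabra4 from −0.14 to 0.34, and astrocyte Gabra3 from −0.39 to 0.41 and Gabra4 from −0.098 to 0.22. Oligodendrocyte Gabra3 ran from −0.074 to 0.046, Gabrb1 from −0.25 to 0.20, Gabra2 from −0.33 to 0.10 and Gabra4 from −0.32 to 0.25. Precursor Gabra5 ran from −0.80 to 0.64, Gabrb1 from −0.14 to 0.46, Gabra2 from −0.13 to 0.35, Gabra4 from −0.17 to 0.72 and Gabrb2 from −0.052 to 0.43. Microglia Gabra5 ran from −0.12 to 1.09, Gabra3 from −0.50 to 0.34, Gabrb1 from −0.24 to 0.39, Gabra2 from −0.43 to 0.18, Gabra4 from −0.17 to 0.58 and Gabrb2 from −0.030 to 1.06. Depth limits Gabrd most, which had 5 to 41 UMIs per rat in oligodendrocyte, precursor and microglia nuclei.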

Other observations

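The deposited bulk table also lists transcripts, and 2 of the members had a minor one that could be matched to the gene. For Gabra3 the minor transcript held 1.17% of the estimated counts of the gene. It had 8.65, 15.6 and 15.8 estimated counts in the sham libraries and 0 in each of the TBI libraries, while the gene as a whole was no lower in TBI. The share of all transcripts with such a separation was not counted, and 14.7% of all genes had groups that did not overlap. For Gabra2 the minor transcript had 74.6, 179 and 270 estimated counts in sham and 95.9, 108 and 90.8 in TBI libraries, and made up 2.51%, 6.05% and 4.76% of the gene in sham and 3.74%, 3.06% and 3.37% in TBI, so its groups overlapped. How reads are divided between transcripts of a gene is an estimate, and these counts were chosen after their values were seen and were not tested.

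One unnamed excitatory cluster was made up almost wholly of nuclei from a pair of rats, with 404 nuclei from the sham, 11 from the naive, 324 from the TBI 1 and 26 from the TBI 2 rat, and it was left out of the classes compared, except in an alternative that added it to the other excitatory nuclei, in which Gabra3 was −0.60 and Gabrd −0.47 on the log2 scale and 0 of 11634 genes passed an FDR of 0.05 by edgeR, with 89 at an unadjusted p under 0.05.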
